A study of Mus musculus with 4 samples.

Results

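Transcripts of 4 Krüppel-like factors (Klf2, Klf3, Klf4 and Klf15) and of Tsc22d3 were examined in mouse liver. The 5 genes were taken by name from the 84 genes of an adipogenesis PCR array, in which each well of a plate amplifies a single transcript from cDNA, and all 5 gave a signal in every sample. The livers came from male C57BL/6J mice that were 2 months old and that received for 5 weeks either a normal diet (ND), with 10% of its kcal from fat, or a high-fat diet (HFD), with 60% of its kcal from fat. Some mice of each diet were also given the *mol*-miR pool, the small RNA fraction of an aqueous *Moringa oleifera* seed extract, by oral gavage every 2 days, and the others were not. The groups are written here as ND, ND + pool, HFD and HFD + pool, and the study had 3 mice in each. The deposited table has 1 liver sample per group, with each gene read in 1 well, and the sources used here do not state whether a sample was 1 liver or a mixture. No value below therefore has an error, no test between groups was possible, and each difference is one between 2 samples.

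Krüppel-like factors are transcription factors that bind CACCC boxes and GC-rich elements through zinc fingers at their C-terminal end, and several of them act during the formation of fat cells. Klf2 represses Pparg and is known in endothelial cells as a factor induced by blood flow, Klf3 represses Cebpa, and Klf4 activates Cebpb together with Egr2. Klf15 is a hepatocyte gene of fasting that promotes gluconeogenesis and the breakdown of amino acids, and its transcription is raised by glucocorticoids. Tsc22d3 encodes the glucocorticoid-induced leucine zipper protein, which has no zinc finger, restrains NF-κB and AP-1, and is a widely used readout of glucocorticoid receptor activity. Klf15 and Tsc22d3 are therefore the glucocorticoid-responsive genes among the 5, and they are contrasted here with Klf2, Klf3 and Klf4.

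The start regions of these genes are shown for Klf2, the gene whose values moved most, and for the glucocorticoid-responsive Klf15 and Tsc22d3. Each sequence is the RefSeq promoter window of mouse assembly GRCm38.p6, from 250 bases before to 50 bases after an annotated transcription start, written on the strand of the gene. Capitals mark the letters CACCC, the core bound by Krüppel-like factors, and AGAACA, the hexamer at each end of the glucocorticoid response element, each searched on both strands. The Klf2 window lies at chr8:72318812-72319111 (plus strand), the Klf15 window at chr6:90462326-90462625 (plus strand), and the Tsc22d3 window, which is 1 of 3 for this gene, at chrX:140600473-140600772 (minus strand).
Klf2: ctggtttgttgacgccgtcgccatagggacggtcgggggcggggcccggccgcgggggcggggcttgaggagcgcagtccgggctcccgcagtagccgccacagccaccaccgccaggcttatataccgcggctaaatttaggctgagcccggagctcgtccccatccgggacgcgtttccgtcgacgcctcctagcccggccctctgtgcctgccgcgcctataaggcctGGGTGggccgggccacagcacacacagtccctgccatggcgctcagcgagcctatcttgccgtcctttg
Klf15: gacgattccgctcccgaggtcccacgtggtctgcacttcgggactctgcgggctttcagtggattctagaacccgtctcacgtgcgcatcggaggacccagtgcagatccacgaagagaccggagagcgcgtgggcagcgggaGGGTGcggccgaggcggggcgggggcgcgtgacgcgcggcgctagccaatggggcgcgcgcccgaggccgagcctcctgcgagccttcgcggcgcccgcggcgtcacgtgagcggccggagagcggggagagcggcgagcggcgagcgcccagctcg
Tsc22d3: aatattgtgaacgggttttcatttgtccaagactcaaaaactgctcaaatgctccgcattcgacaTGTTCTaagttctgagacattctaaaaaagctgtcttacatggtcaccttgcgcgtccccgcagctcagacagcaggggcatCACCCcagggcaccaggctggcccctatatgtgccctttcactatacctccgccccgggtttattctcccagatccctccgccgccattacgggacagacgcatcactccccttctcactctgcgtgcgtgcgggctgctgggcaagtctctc
The glucocorticoid hexamer was present once in the Tsc22d3 window shown and was found in none of the other windows of the 5 genes, including the other 2 of Tsc22d3. Of 32851 windows of the same length, 19% held this hexamer and 57.5% held the CACCC core. The full glucocorticoid response element, in which the hexamer faces its reverse complement, was held by 3 windows. Among the 83 such windows of array genes, 8.43% held the hexamer, 68.7% the core and 0 the full element. The CACCC core occurred 5 times in the window of Klf3 (chr5:64803271-64803570), once in those of Klf2 and Klf15, and not in that of Klf4 (chr4:55532426-55532725). For Tsc22d3 it occurred once in the window shown, and 2 and 0 times in the others. These matches describe letters in the windows alone.

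Each well gave a threshold cycle (Ct), which counts the PCR cycles needed to reach a fixed fluorescence, so that a lower Ct means more template. Normalised Ct is the Ct of a gene minus the mean Ct of 5 reference genes (Actb, Gapdh, Gusb, Hprt and Hsp90ab1), and a difference of 1 cycle was taken as a factor of 2. Because wells differ in their primers, a Ct was compared between samples for the same gene and never as a level between genes. The mean reference Ct lay between 21.6 and 22.2 over the 4 samples, with a span of 0.593 cycles for Hsp90ab1 and of 2.18 cycles for Gapdh, so the choice of the reference bears on every small difference. Each comparison was therefore repeated with other references, 8 in all, among them the median Ct of the array genes detected in every sample (the array median as reference), which by its construction brings the median fold change of the array close to 1. The genomic DNA control (MGDC), a well with primers for an untranscribed stretch of the genome, came up at Ct 26.8 in ND, 28.8 in ND + pool, 34.7 in HFD and 33.4 in HFD + pool. Positive PCR controls were read in 2 of 3 wells in ND (Ct 16.9 and 17.9), in 3 of 3 in ND + pool (18.3 to 18.4), and in 1 of 3 both in HFD (21.2) and in HFD + pool (22.0). The reverse transcription control gave a Ct in 2 of 3 wells in ND + pool and in 0 of 3 in each other sample. The plates thus differed between the diets in control wells that do not depend on the liver transcripts, and the part of these differences in the results was not tested. In the deposited table the ND columns are named for a low-fat diet. The direction of each difference rests on these column names and was not checked against an independent marker of the diet. It is opposite to the direction given by the study, which describes mostly higher transcripts in HFD livers than in ND livers, Klf2 among them, and mostly lower ones with the pool on HFD. The sources used here do not settle which direction is right, so every sign below is that of the deposited Ct values as labelled. In HFD vs. ND, the main counts for the 5 genes and the array are also given with the sign turned. The ranks of the 5 genes on the array are given both ways too. All other counts and ranks are as labelled only. The limits used for counting, given below, are not mirror images, so turning the sign can change such a count.

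Klf15, the glucocorticoid- and fasting-induced factor, varied little between the samples. Its Ct was 21.4 in ND, 22.6 in ND + pool, 21.8 in HFD and 21.5 in HFD + pool, a span of 1.26 cycles. The sample ND + pool had the least Klf15 and HFD + pool the most after normalisation. Normalised Ct was -0.23 in ND, 0.49 in ND + pool, -0.09 in HFD and -0.71 in HFD + pool. ND and HFD, neighbours in this order, lay 0.144 cycles apart, less than the span of any single reference gene. Klf15 had a log2 fold change of -0.14 in HFD vs. ND, and the references moved it between -1.11 (Actb alone) and 2.54 (array median). The order of the samples also depended on the reference. With the array median as reference, HFD had the most Klf15 and ND the least.

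Tsc22d3 had a Ct of 21.5 in ND, 22.5 in ND + pool, 22.3 in HFD and 21.7 in HFD + pool, a span of 1.01 cycles. Its normalised Ct was -0.11 in ND, 0.35 in ND + pool, 0.36 in HFD and -0.56 in HFD + pool. The sample HFD + pool again had the most transcript, and ND + pool and HFD were 0.0066 cycles apart. Against ND, Tsc22d3 in HFD had a log2 fold change of -0.47, which was positive with Hprt alone (0.27), Gapdh alone (0.071) and the array median (2.21). Against HFD, Tsc22d3 in HFD + pool had a log2 fold change of 0.92, or -0.335 with the array median. Klf15 and Tsc22d3 kept close to each other between samples: the distance of their Ct values varied by 0.584 cycles over the 4 samples.

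Klf3, the repressor of Cebpa, had the smallest span of the 5 genes, both in Ct and with the mean of the 5 reference genes. Its Ct was 25.7 in ND, 26.0 in ND + pool, 26.0 in HFD and 25.5 in HFD + pool, and its span of 0.491 cycles was below that of every reference gene. After normalisation Klf3 spanned 0.821 cycles, and 2 of the 84 array genes spanned less, whereas the median span over the array was 2.76 cycles. Klf3 in HFD vs. ND had a log2 fold change of 0.03, with a range from -0.93 (Actb alone) to 2.72 (array median). With the array median Klf4 was at -1.43 there, a smaller difference than that of Klf3. Which gene was the steadiest thus depended on the reference. For the pool on HFD it was 0.79, and it was below 0 with Hprt alone (-0.017) and with the array median (-0.465).

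Klf2, the repressor of Pparg, differed most between the samples. Its Ct was 25.5 in ND, 27.9 in ND + pool, 31.4 in HFD and 30.3 in HFD + pool. Both HFD samples were thus later than both ND samples, by 2.46 cycles for the closest of them. Normalised Ct was 3.90 in ND, 5.73 in ND + pool, 9.44 in HFD and 8.11 in HFD + pool. Each step between neighbouring samples exceeded the span of the reference mean (0.624 cycles). The smallest step, 1.34 cycles between HFD and HFD + pool, was below the span of Gapdh (2.18 cycles). It was 0.533 with Hprt alone, 0.563 with Hsp90ab1 alone and 0.085 with the array median as reference. Klf2 in HFD vs. ND had a log2 fold change of -5.55, and over the references it lay between -6.52 (Actb alone) and -2.86 (array median), so the references altered its size and not its sign, which is opposite to that in the study. The signal of Klf2 came late on the HFD plates, and with every Ct limited to 30 this difference was -4.17. The pool on ND went with a log2 fold change of -1.83, and the diets under the pool with -2.38.

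Klf4, which acts with Egr2 on Cebpb, followed the order of Klf2 with smaller steps. Its Ct was 23.9 in ND, 25.7 in ND + pool, 28.4 in HFD and 27.6 in HFD + pool. ND had the most transcript and HFD the least, and the ND samples and the HFD samples did not overlap. Klf4 had a log2 fold change of -4.12 in HFD vs. ND. With the pool this value was 1.11 on HFD and -1.18 on ND, and between the diets under the pool it was -1.84. Over the references tried, HFD vs. ND lay between -5.09 and -1.43, so its sign did not depend on that choice, whereas the pool's value on HFD was -0.144 with the array median.

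**Figure D1:**
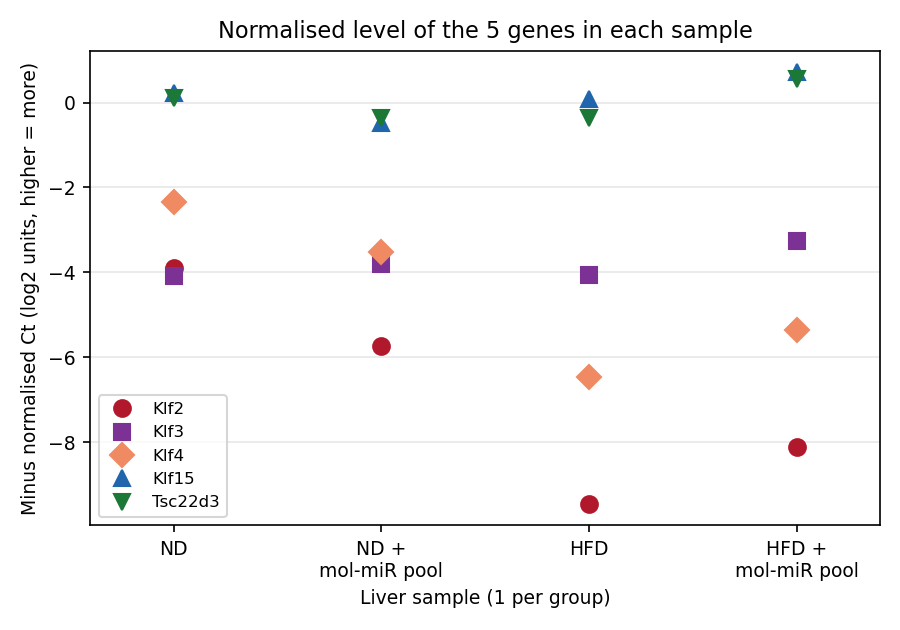
Level of each gene in each liver sample, given as minus the normalised Ct (log2 units, mean of 5 reference genes; higher means more transcript), with 1 point per gene and sample and no error. Klf2 and Klf4 are lowest in HFD, at a normalised Ct of 9.44 and 6.46, while Klf3, Klf15 and Tsc22d3 each stay within 1.20 cycles over the 4 samples.

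The limits of the study were used for counting: a gene is called upregulated at a fold change over 1.5 and downregulated at one under 0.5. In HFD vs. ND, Klf2 and Klf4 were downregulated and the other 3 genes lay between the limits. Over the whole array 72.6% of the genes were downregulated, a larger share than the 2 of 5 members, and 3.57% upregulated, and the median log2 fold change was -0.47 for the 5 genes and -2.53 for the array. With the array median as reference the array's median moved up by 2.69 to 0.158, with 41.7% of its genes upregulated and 35.7% downregulated. Measured from the median of all 84 genes, which no choice of reference alters, Klf2 lay at -3.02 on the log2 scale and Klf4 at -1.59, while Klf3 lay at 2.56, Klf15 at 2.38 and Tsc22d3 at 2.06. Klf3 was 7th, Klf15 10th and Tsc22d3 16th from the highest of the 84 log2 fold changes, Klf4 was 58th and Klf2 66th. With the sign turned, Klf2 (5.55) and Klf4 (4.12) would be upregulated, as would 79.8% of the array, with 1.19% downregulated. The ranks would then be 19th for Klf2, 27th for Klf4, 69th for Tsc22d3, 75th for Klf15 and 78th for Klf3.

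All 5 genes were upregulated in HFD + pool vs. HFD, from a log2 fold change of 0.62 for Klf15 to 1.34 for Klf2. The same call was made for 84.5% of the array, and 1.19% was downregulated, or 36.9% and 8.33% with the array median as reference. All 5 genes lay below the median log2 fold change of the array, 1.46, in this comparison. None of the 5 passed the limits with Hprt alone, with Hsp90ab1 alone or with the array median, and with the last of these all but Klf2 were below 0. In ND + pool vs. ND, Klf2 and Klf4 were downregulated and 0 of the 5 upregulated, beside 48.8% and 4.76% of the array. The array median as reference left 3.57% downregulated and made 21.4% upregulated, and Klf2 (-0.895) and Klf4 (-0.241) were then between the limits. Klf15 (-0.72), Tsc22d3 (-0.47) and Klf3 (0.28) were between the limits there, and all 3 changed sign with some of the references.

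The diets were also compared among the animals that received the pool. In HFD + pool vs. ND + pool, Klf15 (log2 fold change 1.20) and Tsc22d3 (0.91) were upregulated, Klf2 (-2.38) and Klf4 (-1.84) were downregulated, and Klf3 (0.54) was between the limits. Of the array, 23.8% was upregulated and 34.5% downregulated, or 42.9% and 29.8% with the array median as reference. By rank it was the comparison in which the glucocorticoid-responsive genes stood highest, with Klf15 5th and Tsc22d3 14th of 84. Measured from the median of all 84 genes, Klf15 lay at 1.42 and Tsc22d3 at 1.13. By that measure both stood higher in HFD vs. ND (2.385 and 2.055) and in HFD + pool vs. ND (1.71 and 1.68). In HFD + pool vs. ND + pool both were above 0 with each reference tried, from 0.523 to 2.02 for Klf15 and from 0.235 to 1.73 for Tsc22d3. Klf15 was under the limit with Hsp90ab1 alone. Tsc22d3 was under it with Hsp90ab1 alone, with Gusb alone (0.417) and with the mean of Gusb, Hprt and Hsp90ab1 (0.543). Against untreated ND, the HFD + pool sample had Klf3 (0.82) upregulated, Klf2 (-4.21) and Klf4 (-3.01) downregulated, and Klf15 (0.48) and Tsc22d3 (0.44) between the limits, beside 14.3% of the array upregulated and 53.6% downregulated, or 44% and 34.5% with the array median. The 5 comparisons share samples with each other and are not independent. With Hsp90ab1 alone Klf3 was at -0.391 in this comparison.

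**Figure D2:**
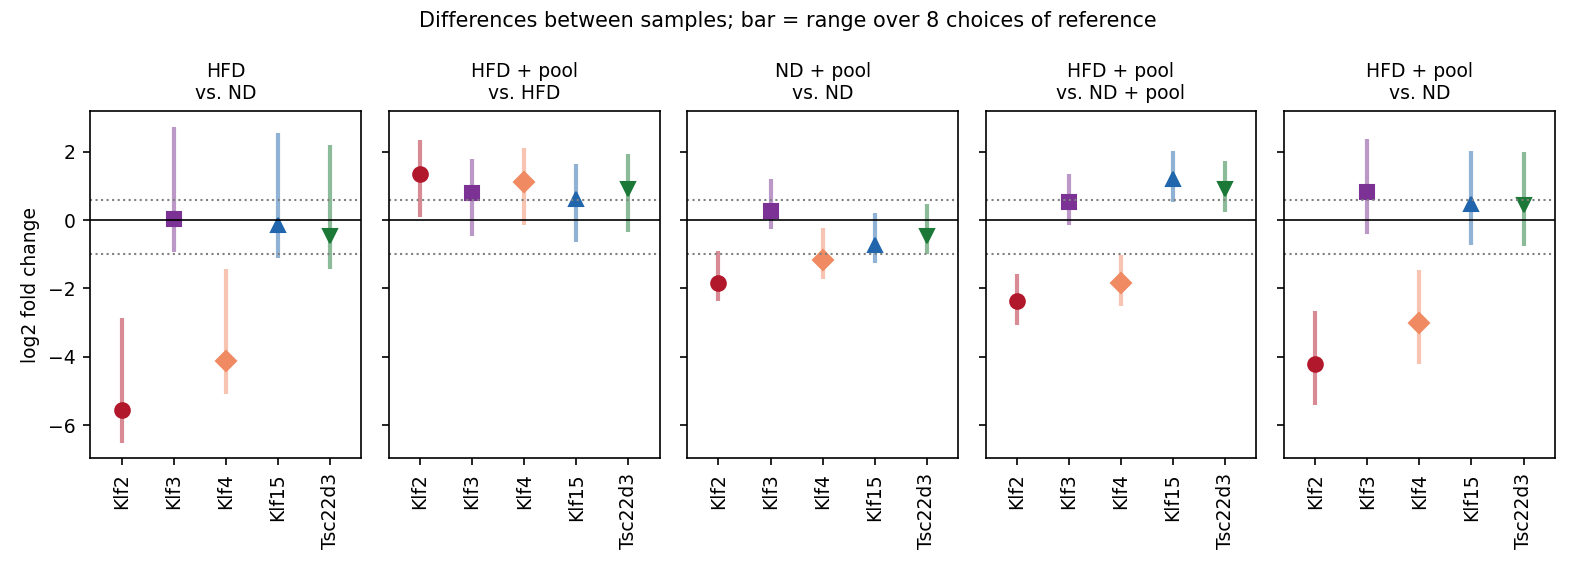
The log2 fold change of each gene in the 5 comparisons (points, mean of 5 reference genes), where bars span the lowest and highest value over 8 choices of reference and are no error bars; dotted lines mark the limits of 1.5 and 0.5. Bars of Klf2 and Klf4 stay below 0 wherever HFD or HFD + pool is set against ND or ND + pool, while those of Klf3, Klf15 and Tsc22d3 in HFD vs. ND cross 0.

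Setting genes against each other within a sample removes the reference genes from the calculation. Since primers differ between wells, only the change of such a distance between samples is read. The mean of Klf2, Klf3 and Klf4 was later than the mean Ct of Klf15 and Tsc22d3 by 3.61 cycles in ND, 3.93 in ND + pool, 6.51 in HFD and 6.21 in HFD + pool. The gap widened by 2.90 cycles from ND to HFD and by 2.28 cycles from ND + pool to HFD + pool. With the pool it changed by 0.31 cycles on ND and by -0.31 cycles on HFD. The widening was carried by Klf2 and Klf4, and Klf3 stayed with the glucocorticoid-responsive pair. Klf3 was 4.26 cycles later than the pair in ND, 3.38 in ND + pool, 3.91 in HFD and 3.90 in HFD + pool, so against Klf3 alone the gap changed by -0.34 cycles from ND to HFD. Klf2 was 4.07 cycles later than the pair in ND, 5.30 in ND + pool, 9.31 in HFD and 8.74 in HFD + pool. For Klf4 these distances were 2.51, 3.09, 6.32 and 5.98 cycles. Against Klf2 and Klf4 alone the gap widened by 4.53 cycles from ND to HFD. Between the diets, these Ct distances thus divided Klf2 with Klf4 from the other 3, and not the glucocorticoid-responsive genes from the rest. The place of Klf3 depended on the genomic DNA control. With the control's signal taken off, as described below, Klf3 was at 0.81 in HFD vs. ND, beside -0.25 for Klf15 and -0.57 for Tsc22d3.

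**Figure D3:**
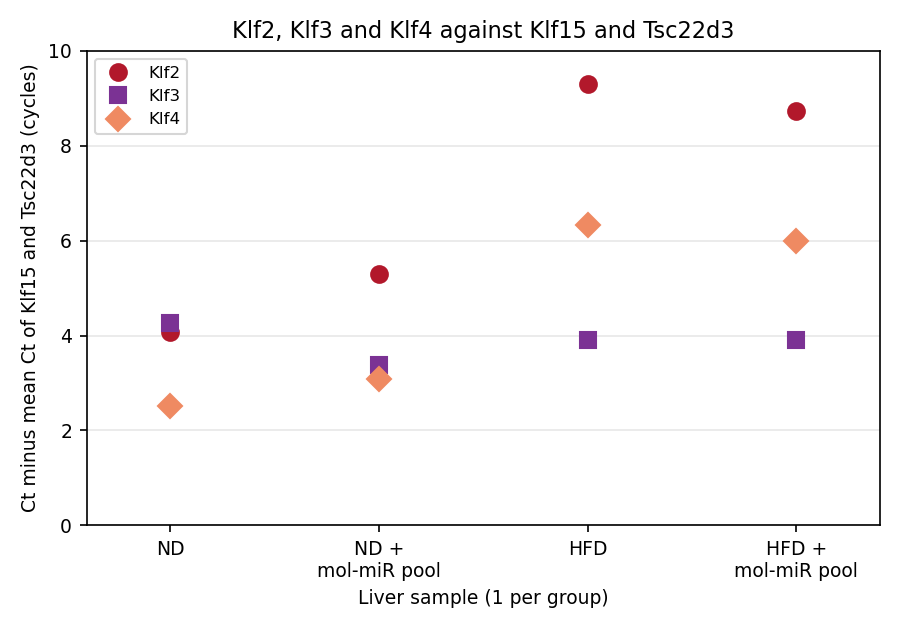
Ct of Klf2, Klf3 and Klf4 minus the mean Ct of Klf15 and Tsc22d3 in the same liver sample (cycles, 1 point per gene and sample), a value that needs no reference gene. Klf2 goes from 4.07 cycles in ND to 9.31 in HFD and Klf4 from 2.51 to 6.32, while Klf3 stays between 3.38 and 4.26.

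The genomic DNA control moved with the same samples. It was 7.88 cycles later in HFD than in ND, against 5.88 for Klf2, 4.45 for Klf4, 0.80 for Tsc22d3, 0.47 for Klf15 and 0.29 for Klf3. On the ND plate the Ct of Klf3 was 1.08 cycles earlier than the control, that of Klf2 1.27 and that of Klf4 2.83, whereas Tsc22d3 was 5.28 and Klf15 5.40 cycles earlier. On the ND + pool plate the distance was 0.942 cycles for Klf2, 2.87 for Klf3, 3.15 for Klf4, 6.18 for Klf15 and 6.31 for Tsc22d3. On the HFD plate it was 3.27 cycles for Klf2, 6.26 for Klf4, 8.67 for Klf3, 12.4 for Tsc22d3 and 12.8 for Klf15. On the HFD + pool plate it was 3.05 cycles for Klf2, 5.80 for Klf4, 7.89 for Klf3, 11.7 for Tsc22d3 and 11.9 for Klf15. Among the 5 genes, Klf2 was closest to the control in 3 of the 4 samples, and Klf15 and Tsc22d3 were far from it in each.

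If every well amplified DNA as the control well does, the control's signal would equal 41.5% of the signal of Klf2 in ND, 47.3% of that of Klf3, 14.1% of that of Klf4, 2.58% of that of Tsc22d3 and 2.37% of that of Klf15. In HFD the same share would be 10.4% for Klf2 and at most 1.31% for each of the others. The control's signal was then taken off the 5 genes and the 5 reference genes alike, so these values also hold the change in the references. This left the HFD vs. ND log2 value at -5.07 for Klf2, -4.06 for Klf4, -0.25 for Klf15 and -0.57 for Tsc22d3. That of Klf3 moved from 0.03 to 0.81, which is above the limit for upregulation. How far the assays of the 5 genes amplify DNA was not measured on these plates.

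**Figure D4:**
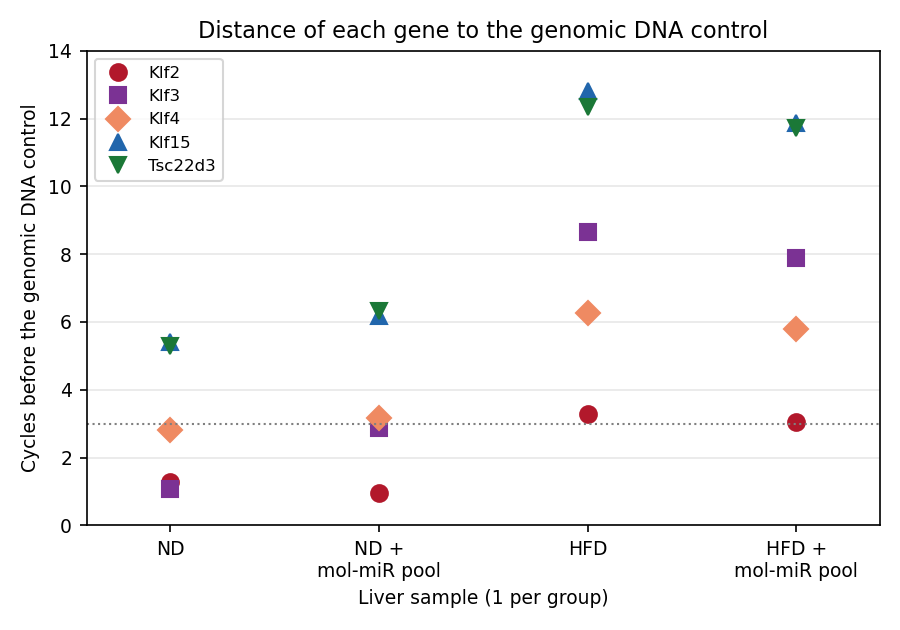
Cycles by which each gene came up before the genomic DNA control in the same liver sample (1 point per gene and sample; the dotted line marks 3 cycles). In ND, Klf2, Klf3 and Klf4 lie under the line and Klf15 and Tsc22d3 at 5.40 and 5.28 cycles, and in HFD all 5 lie above it, with Klf2 at 3.27 cycles.

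On the array as a whole, 63 of the 84 genes were no more than 3 cycles earlier than the control in ND, and in HFD vs. ND their log2 fold changes had a median of -3.30, beside -0.86 for the other 21 genes. Both quantities contain the Ct in ND, so this is a description and not an independent relation. Klf2 and Klf4, with -5.55 and -4.12, lay below the median of the 63, and Klf15 and Tsc22d3, with -0.14 and -0.47, lay above that of the 21. Klf3 did not follow its neighbours. It was among the genes nearest to the control in ND, and its log2 fold change of 0.03 was the 3rd highest of those 63, after Irs1 and Taz. Of the 63 genes, 53 were downregulated.

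**Figure D5:**
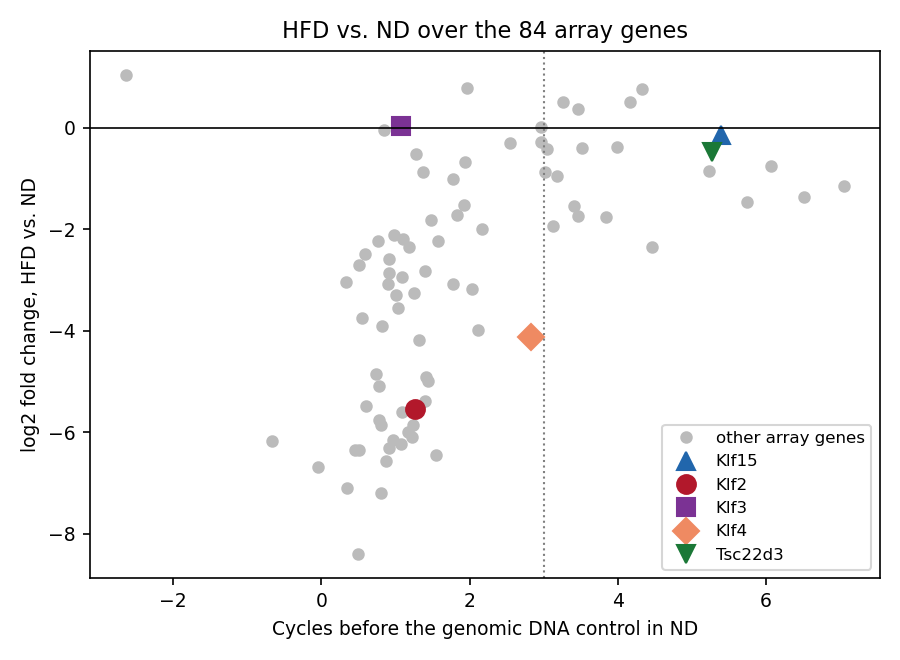
Log2 fold change of HFD vs. ND against the cycles by which a gene came up before the genomic DNA control in ND, for the 84 array genes (1 point each; grey, other genes; dotted line, 3 cycles). Klf3, at 1.08 cycles and 0.03, sits far above most genes at that distance, and Klf2, at 1.27 cycles and -5.55, below their median.

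Of the other array genes known to respond to glucocorticoids (Agt, Cebpb, Cebpd, Cdkn1a, Irs2 and Ppargc1a), 3 of 6 were downregulated in HFD vs. ND and 0 upregulated, beside 72.6% and 3.57% of the array. Those downregulated were Cebpd (-4.99), a C/EBP factor of early adipogenesis, the cell cycle inhibitor gene Cdkn1a (-3.30) and Cebpb (-1.16). Agt (0.51), which encodes the angiotensinogen secreted by hepatocytes, Irs2 (-0.51), an insulin receptor substrate, and Ppargc1a (-0.87), a coactivator of gluconeogenesis, lay between the limits, as did Klf15 and Tsc22d3. Between the diets under the pool, Irs2 (1.16) and Ppargc1a (1.08) were upregulated, as were Klf15 and Tsc22d3, and Cebpd (-2.29) was downregulated. The other 3 of the list, Agt (0.14), Cebpb (0.26) and Cdkn1a (-0.74), lay between the limits. In that comparison 23.8% of the array was upregulated and 34.5% downregulated. For HFD against ND the list had a median of -1.01 on the log2 scale, beside -2.53 for the array, and it became 1.67 with the array median as reference. The pool on HFD left 5 of the 6 upregulated and 0 downregulated, as it did Klf15 and Tsc22d3, beside 84.5% of the array. Cebpd, Cdkn1a and Irs2 came 1.44, 1.01 and 1.27 cycles before MGDC in ND, and the part of this distance in their values was not tested.

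Of the genes that these factors are known to act on or with, Egr2 (-4.19), Slc2a4 (-2.00), the glucose transporter gene activated by Klf15, Pparg (-1.73) and Cebpb (-1.16) were downregulated in HFD vs. ND, and Cebpa (-0.41) lay between the limits. This is 4 of 5 genes, beside 72.6% of the array. The pool on HFD left Egr2 (2.77), Pparg (2.49), Cebpb (1.68) and Cebpa (0.67) upregulated, again 4 of 5, beside 84.5% of the array, with Slc2a4 at -0.52. With the array median 3 of the 5 stayed above 0. That reference put 4 of the 5 above 0 in HFD vs. ND. The target of Klf2, Pparg, had a Ct of 23.3 in ND, 23.6 in ND + pool, 25.4 in HFD and 23.2 in HFD + pool. Pparg was thus latest in HFD, as Klf2 was, and 72.6% of the array was downregulated in HFD vs. ND. In the other samples the 2 genes differed. Pparg was earliest in HFD + pool, where Klf2 had a Ct of 30.3, and the pool on ND went with 0.25 for Pparg and -1.83 for Klf2.

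The genes with the profile most like that of each member were found from the Ct values centred on their own mean, by the largest difference over the 4 samples, among the 81 other genes with a Ct in each sample. For Tsc22d3 these were Tcf7l2 (0.0523 cycles), Hes1 (0.109) and Ppargc1b (0.174), and for Klf15 they were Hes1 (0.223), Irs2 (0.238) and Acacb (0.27). Tsc22d3 was the 4th most like gene of Klf15, at 0.303 cycles, and Klf15 was the 8th of Tsc22d3. The genes most like Klf3 were Lmna (0.276), Cebpa (0.297), the gene it represses, and Tcf7l2 (0.366), and Tsc22d3 was the 5th (0.408). For Klf2 they were Cebpd (0.3), Adig (0.372) and Retn (0.468), and for Klf4 Cebpd (0.52), Runx1t1 (0.527) and Axin1 (0.55). The distance between Klf2 and Klf4 was 0.82 cycles, and that between Klf2 and Klf3 was 3.18 cycles. Cebpd, Adig and Retn came 1.44, 1.39 and 0.506 cycles before MGDC in ND, so the genes most like Klf2 were themselves close to it there.

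Markers of other cell types had the signs of Klf2 and Klf4 in HFD vs. ND and in HFD + pool vs. HFD, as most of the array did. All 6 adipocyte genes (Adipoq, Lep, Retn, Cfd, Adig and Fabp4) were downregulated in HFD vs. ND, between -6.35 and -1.76, and upregulated in HFD + pool vs. HFD, between 0.98 and 7.45, beside 72.6% and 84.5% of the array. In the other 3 comparisons Cfd, which encodes adipsin, had the sign opposite to Klf2 and Klf4, with 2.66 in ND + pool vs. ND, 0.81 between the diets under the pool and 3.47 for HFD + pool against ND. The array median as reference put 1 of the 6 above 0 for HFD against ND, and 1 below 0 for the pool on HFD. Within 3 cycles of MGDC were 5 of these 6 genes in ND, 4 in ND + pool, 3 in HFD and 1 in HFD + pool. The brown adipocyte genes Ucp1, Prdm16 and Dio2 lay between -6.16 and -5.85 in HFD vs. ND. All 3 were within 3 cycles of MGDC in ND, ND + pool and HFD, as were 2 in HFD + pool, and Prdm16 came up after MGDC in ND. The endothelial gene Angpt2 was at -3.09 in HFD vs. ND and at 1.91 in HFD + pool vs. HFD, and came up 1.775 cycles before MGDC in ND. The part of other cell types in the values of Klf2 and Klf4 was not tested, and in whole liver fewer cells of a type and less RNA per cell cannot be told apart. The hepatocyte markers Alb, Ttr and Apoa1 are not on the array, and the hepatocyte-enriched genes Agt, Nr0b2, Cebpa, Fasn and Ppara had a Ct between 22.4 and 26.7 in all samples. Their log2 fold changes of HFD vs. ND lay between -1.53 and 0.51, or all above 0 with the array median as reference, nearer to those of Klf15, Tsc22d3 and Klf3 than to those of Klf2 and Klf4.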

How the data were processed

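Livers of 4 groups of mice were assayed on the Mouse Adipogenesis RT2 Profiler PCR Array with SYBR Green detection, after TRIzol extraction and reverse transcription. The authors deposited the Ct value of each well for 4 samples, without normalization, with missing wells written as undetermined. A second deposited table holds the authors' own fold changes between groups and was not used. The column names gave the sample of each column, with a low-fat diet standing for the ND.

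A Ct that was missing or over 35 was given the value 35. From each Ct the mean of the 5 reference genes was subtracted, and log2 fold changes were the differences in normalised Ct with the sign turned, a doubling per cycle being assumed. The limits of 1.5 and 0.5 are those of the study. With 1 sample per group no p-value was calculated, and the precision of a Ct could not be estimated. Alternatives were single reference genes, a mean of 3 of them, the median Ct of the array genes with a Ct in all samples, Ct values left unlimited or limited to 30, an upper fold limit of 2, subtraction of the genomic DNA control and other groupings of the genes. The members and lists were chosen with earlier results of these data known. Named were the 5 members, the reference genes and control wells, the listed glucocorticoid-responsive, partner and marker genes, and the 3 genes most like each member. Irs1 and Taz were named after their values were seen.

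All 84 symbols were found in the RefSeq annotation of GRCm38.p6, which was used for names and for the promoter windows because the sources used here give no genome build. A promoter window was found for 61 of the 84 genes. The calculations used Python 3.11.15, numpy 2.4.6 and matplotlib 3.10.9 and were tested on simulated data.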

Additional observations from a re-analysis of the deposited data

Results flagged for a closer look

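The *mol*-miR pool went with opposite differences on the 2 diets for Klf2 and Klf4. The log2 fold change of Klf2 with the pool was -1.83 on ND and 1.34 on HFD, which is a difference of 3.17 between the diets, and with the array median as reference the values were -0.895 and 0.085, neither past a limit. For Klf4 the values with the 5 reference genes were -1.18 and 1.11, a difference of 2.29, and with the array median as reference both were below 0 (-0.241 and -0.144). With the mean of the 5 reference genes each passed the fold limits in both comparisons, each value rests on 1 sample per group, and the difference between the diets was not tested. Opposite calls of this kind were made for 36 of the 84 array genes (42.9%), and the median difference over the array was 2.28, so the value of Klf4 was at the array's median. The genomic DNA control changed by -1.50 and 1.57 on the same log2 scale in these comparisons, and its part in the difference was not tested.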

How the results depend on the processing

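No paired analysis was possible because each group has 1 sample, and for the same reason no replicate could be left out. Of 250 recalculated log2 fold changes of the 5 genes (25 values under 10 alternatives each), 193 kept their call, 16 of them with the other sign, and 57 did not. Among those kept, some could not have changed. Leaving the Ct unlimited could alter no value, as the latest Ct of the 5 genes was 31.4 (Klf2 in HFD), below the main limit. A Ct limit of 30 could alter only Klf2, and only where HFD or HFD + pool was compared. The calls of Klf2 and Klf4 in the 3 comparisons of an HFD sample with an ND sample held under all 10 alternatives. The value nearest to the limit, a log2 of -1, was -1.02 for Klf4 in HFD + pool vs. ND + pool with Gapdh alone. A change of reference shifts every gene alike, in HFD vs. ND by between -0.97 and 2.69. For Klf4 neither change of the Ct limit could alter a value. The limit of 30 left Klf2 at -4.17 in HFD vs. ND, -2.04 in HFD + pool vs. ND + pool and -3.87 in HFD + pool vs. ND, with the call unchanged. In HFD + pool vs. HFD, Klf15 turned to -0.183 with Hprt alone, -0.153 with Hsp90ab1 alone, -0.0303 with the mean of Gusb, Hprt and Hsp90ab1, and -0.631 with the array median as reference. There Klf3 turned to -0.017 with Hprt alone and -0.465 with the array median, which also turned Klf4 (-0.144) and Tsc22d3 (-0.335). Klf3 in HFD + pool vs. ND turned to -0.391 with Hsp90ab1 alone. The number of the 5 genes past the limits in HFD vs. ND was 2, and it was 4 with Hprt alone, 4 with Actb alone and 5 with the array median. In HFD + pool vs. HFD it was 5, and it fell to 2 with Gusb alone, 0 with Hprt alone, 0 with Hsp90ab1 alone, 1 with the mean of these 3, 0 with the array median and 2 with an upper limit of 2. In ND + pool vs. ND it was 2, with 1 for Gusb alone, 4 for Hsp90ab1 alone and 1 for the array median. In HFD + pool vs. ND + pool it was 4, with 2 for Hsp90ab1 alone. For HFD + pool against ND it was 3, with 5 for Gapdh alone and 5 for the array median. The gap between Klf15 with Tsc22d3 and the other 3 genes widened by 2.90 cycles in HFD vs. ND and 2.60 when HFD + pool was set against ND, and against Klf3 alone it changed by -0.342 and -0.36. Against Klf3 alone it was also 0.515 in HFD + pool vs. ND + pool and -0.875 in ND + pool vs. ND, where it was 0.909 against Klf2 and Klf4. In HFD + pool vs. HFD it was 0.0387 with a Ct limit of 30, which holds Klf2 at the limit in both samples. Apart from that limit and the choice of genes, the cause of these shifts was not tested. With 1 well per gene and sample, a difference of the size of the reference span cannot be resolved.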
